A study of Homo sapiens with 2 samples.

Results

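The Rab GTPases are the largest family of small GTP-binding proteins that direct membrane traffic, and their RNA was examined in vesicles released by LAD2 cells. LAD2 is an established line of human mast cells. Members were all protein-coding genes whose symbol is RAB followed by a number and at most 1 letter and 1 further digit. GENCODE 29 holds 63 such genes, and 30 of them have a row among the 14467 genes of the deposited tables. The set also holds ENSG00000267112, an annotated antisense gene opposite RAB27B, which makes 31 rows in all. The Rabs of regulated secretion and vesicle release (RAB3, RAB27, RAB35 and RAB11, 9 genes) were set against the 54 others.

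Both libraries belong to 1 group, replicates 1 and 2, with no treated or control samples. LAD2 cells were kept in SP34 medium with its nutrient supplement and stem cell factor, and the vesicles were harvested on day 4 of culture. The labels name no separate cultures for the 2 libraries, and their spread may be no more than technical. LAD2 is a single line and no RNA of the cells themselves was measured here, so a level in vesicles cannot be set against the cells. Of 10 genes that mark mast cells, 8 had a value, where 42.3% of all protein-coding genes did, and 1 reached the detection threshold set out below, where 18.4% did, the transcription factor gene GATA2 (8.89 in replicate 1 and 9.16 in replicate 2, log2). The receptor gene KIT stood at 2.20 and 2.18, and FCER1A and MITF had no value.

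A Rab protein is a switch that holds GTP when active and GDP when inactive. Guanine nucleotide exchange factors (GEFs) turn it on, GTPase-activating proteins (GAPs) turn it off, and lipid groups added by geranylgeranyl transferase anchor it in its membrane until a GDP dissociation inhibitor (GDI) extracts it. Each Rab marks its own compartments. In mast cells RAB27 and RAB3 proteins sit on secretory granules, and RAB27A and RAB27B are known from human tumour cells for docking the endosomes that release exosomes.

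Values are on a log2 scale, as deposited, and a gene was called detected when its linear value (the log2 undone) was at least 10 in both libraries. Low values were pulled together between the libraries before deposit, so a value above the threshold in both does not show reads in both. Over all genes the replicate SD was 0.0118 log2 units where the mean was 2 or less and 0.26 where it exceeded 10, so the SD of a low gene understates its error. Each SD below is over the 2 libraries (n = 2). Levels of different genes were compared as log2 values per kb of exon. About 2100000 counted reads in replicate 1 and 1600000 in replicate 2 were estimated from the spacing of the lowest values. No source used here gives the counting settings, strand included, and for each gene below it is uncertain which strand's RNA its value measures.

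RAB27B was close to the bottom of the scale in the vesicle RNA, while the gene annotated on its opposite strand was among the highest of the whole table. RAB27B had 0.77 in replicate 1 and 0.75 in replicate 2 (0.76 ± 0.01). ENSG00000267112 had 11.87 and 11.73 (11.80 ± 0.10). Both libraries placed the opposite-strand gene above RAB27B, by 11.10 log2 units in replicate 1 and 10.98 in replicate 2, or 14.75 per kb of exon. As deposited linear values the ratio was 2199 and 2022, which is no ratio of reads, since the RAB27B values are shrunken. ENSG00000267112 ranked 49th of all genes with a value and 27th of 2355 genes annotated as antisense. Its linear value was 9.97 times the sum over all 30 Rab genes in replicate 1 and 9.45 times that sum in replicate 2. It was included because it lies opposite RAB27B with its level already known, so its high value is a description.

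The 2 genes overlap over the 3′ part of RAB27B. RAB27B lies on the plus strand at chr18:54717860-54895516 (GRCh38), and ENSG00000267112 on the minus strand at chr18:54885866-54898083, with its annotated start 2567 bases beyond the end of RAB27B. The 1 annotated transcript of ENSG00000267112 has 4 exons, and 341 of its 567 exonic bases lie opposite RAB27B exons. All 286 bases of its exon 2 (chr18:54891145-54891430) lie opposite the 3′ untranslated region. Exon 3 (chr18:54888064-54888159) lies opposite 55 coding bases of RAB27B and continues for 41 bases into the neighbouring RAB27B intron. Its exons 1 and 4 lie opposite no RAB27B exon. The sequence of exon 3 and that of the RAB27B bases opposite it, from the GENCODE 29 transcripts, are shown 5′ to 3′ because they set out the coding bases that the 2 genes share. Capitals mark the bases of exon 3 complementary to RAB27B coding sequence.
ENSG00000267112 exon 3: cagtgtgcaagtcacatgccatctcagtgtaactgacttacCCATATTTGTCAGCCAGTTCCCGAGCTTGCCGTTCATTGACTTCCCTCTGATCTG
RAB27B coding strand, chr18:54888064-54888118: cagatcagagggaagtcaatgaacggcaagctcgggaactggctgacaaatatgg
Values were deposited per gene and not per exon, so how the reads of ENSG00000267112 divide between its shared and its own exons was not tested. RNA of RAB27B and RNA of the opposite strand cannot be told apart from these tables.

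**Figure D1:**
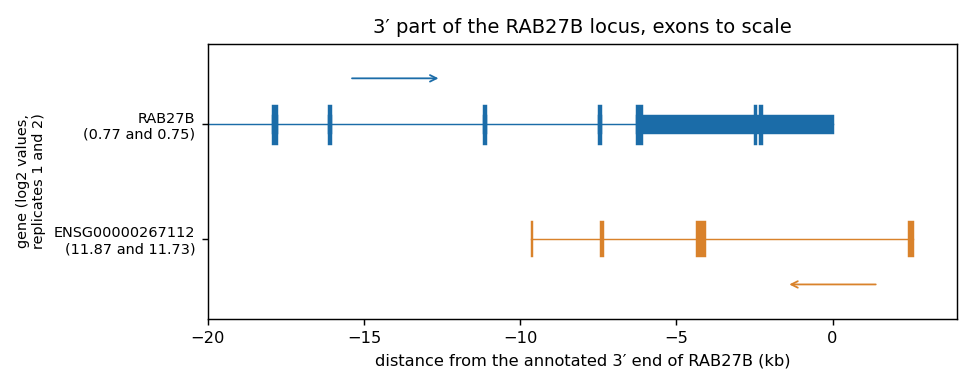
The 3′ part of the RAB27B locus, with distance in kb from the annotated 3′ end of RAB27B on the x axis and the 2 genes on the y axis, each with its log2 values in both libraries; tall boxes are coding exons of RAB27B and exons of ENSG00000267112, the lower box is untranslated sequence, and arrows give the direction of transcription. RAB27B, at 0.77 and 0.75, shares 341 exonic bases with ENSG00000267112, at 11.87 and 11.73.

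The value of RAB27B can be put as a number of even steps, and as reads only by assumption. Steps of 0.425 for replicate 1 and 0.588 for replicate 2 were taken from the lowest linear values in the tables. Each was set so that the commonest low pair of values higher in that library lies at 2 steps. The 753 genes at that pair for replicate 1 and the 465 for replicate 2 are therefore placed by construction. Whole numbers of these steps gave 4041 of the 4229 genes with a mean below 2 on the log2 scale, each by a single combination. Each fit lay within 1% of the higher of the 2 values of its gene. Many combinations were tried for each gene, and how many genes other step sizes would place was not tested. The 188 genes not placed all share the lowest pair of values in the tables. If 1 step is 1 read, RAB27B had 4 reads in replicate 1 and 0 in replicate 2, a pair of values that it shares with 536 genes, RAB27B included. Step numbers were even for 76.7% of the genes seen in replicate 1 alone and 82.8% of those seen in replicate 2 alone. These shares include the genes placed at 2 steps by construction. Whether mates of a read pair were counted singly was not tested. If steps are reads, the deposited 0.75 in replicate 2 stands for no read, and the difference between the 2 libraries is not measured by the printed SD. Low values were pulled toward the mean of both libraries, so a read in 1 library was taken to move it by 1 step, and at a high value by 2 steps, 0.850 in replicate 1 and 1.18 in replicate 2. On that estimate the linear values of ENSG00000267112 come to about 4399 reads in replicate 1 and 2893 in replicate 2.

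Of the 9 secretory Rabs, 5 had a value (55.6%, against 42.3% of protein-coding genes) and 2 were detected (22.2%, against 18.4%), RAB11B and RAB35. RAB11B, a Rab of the recycling endosome, had 5.10 in replicate 1 and 5.11 in replicate 2 (5.10 ± 0.01), or 3.80 per kb of exon, above 85.0% of the protein-coding genes with a value. RAB35, which acts in fast recycling at the cell surface and in exosome release, had 4.67 and 4.85 (4.76 ± 0.13), or 2.75 per kb. Both libraries put both genes above the threshold.

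The other secretory Rabs with a value rested on single-figure step numbers in 1 library. RAB3D, a Rab of mast cell and exocrine granules, had 1.79 and 1.82, which is 6 steps in replicate 2 and 0 in replicate 1. RAB3B, which acts in hormone and transmitter release, had 1.22 and 1.24, or 4 steps in replicate 2 alone. RAB27B was the reverse case, with its 4 steps in replicate 1. RAB3D, RAB3B and RAB27B were therefore each placed with steps in 1 library alone. Steps were not worked out for RAB11B and RAB35, so reads in both libraries were not shown for them. RAB27A, the close relative of RAB27B that docks granules at the plasma membrane, RAB3A and RAB3C, the synaptic vesicle Rabs, and RAB11A, the more widely studied RAB11, had no value in either library. Absence of a row does not show absence of the RNA at this depth.

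Secretory and other Rabs had overlapping levels. The 5 secretory genes with a value had a median of -0.34 per kb of exon (log2, range -2.46 to 3.80), and the 25 others a median of -0.13 (range -3.39 to 4.20). The secretory median was lower by 0.21 units (-0.206 in replicate 1 and -0.215 in replicate 2), and over all 8431 protein-coding genes with a value the median was 0.68. The direction was not stable. It turned to 0.75 units higher when the lists were held to detected genes, 2 secretory and 8 others. It moved to -0.58 with the longest transcript as the length and to -1.11 without the RAB11 genes. No test stands behind these medians, since genes are not replicates.

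**Figure D2:**
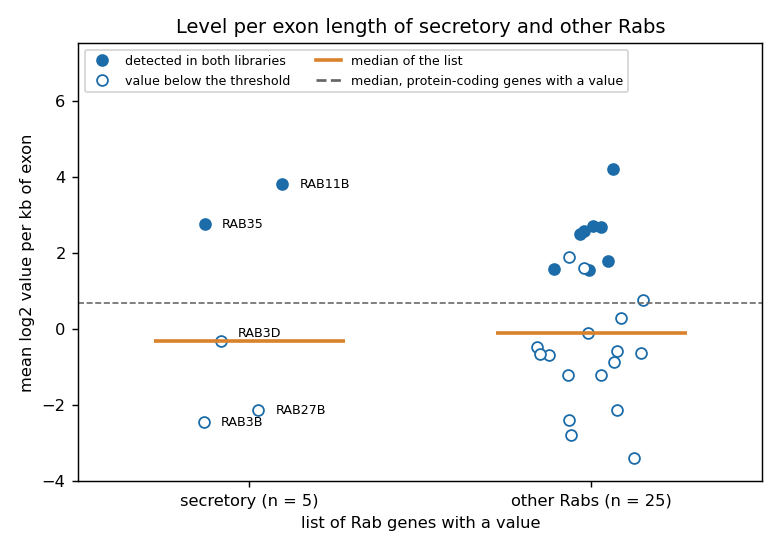
Mean log2 value per kb of exon (y axis) for the 5 secretory and 25 other Rab genes with a value (x axis); filled points were detected in both libraries, open points were below the threshold, orange bars are list medians and the dashed line is the median of all protein-coding genes with a value. RAB11B and RAB35 stand at 3.80 and 2.75, the 3 remaining secretory genes lie below 0, and the medians are -0.34 and -0.13.

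Over the whole family 30 of 63 genes had a value (47.6%), against 42.3% of the 19951 protein-coding genes of the annotation. Detected in both libraries were 10 of 63 (15.9%), against 18.4% of protein-coding genes. Both shares lie near the background. The 30 genes together held 0.0214% of the summed linear value in replicate 1 and 0.0195% in replicate 2. ENSG00000267112 alone held 0.213% and 0.184%.

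Rabs of the endoplasmic reticulum and Golgi supplied 6 of the 10 detected genes, from 17 members of which 11 had a value. These are 35.3% detected and 64.7% with a value, against 18.4% and 42.3% of protein-coding genes, a difference that was not tested. RAB6B, a Golgi Rab best known from neurons, had 5.40 in replicate 1 and 5.18 in replicate 2 (5.29 ± 0.15). RAB6A, which drives transport from the Golgi, had 4.78 and 4.80 (4.79 ± 0.02). RAB6C, an intronless relative of RAB6A, had 4.26 and 4.11 (4.18 ± 0.11). RAB6A, RAB6C and RAB6D are near copies, reads could be split among them, and RAB6D had no value, so the division between RAB6A and RAB6C is uncertain.

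RAB34, which acts at the Golgi and in cilium formation, had 4.31 and 4.48 (4.40 ± 0.12). RAB2A, needed for transport between endoplasmic reticulum and Golgi, had 4.04 and 4.03 (4.04 ± 0.01). Its relative RAB2B had 3.47 and 3.38 (3.42 ± 0.06), just above the threshold in both libraries. At this level values are shrunken, 91 genes hold the same pair, RAB2B included, and reads in both libraries were not shown. RAB2A shares its pair with 4 genes, itself included, and reads in both libraries were not shown for it either. RAB1A, the main Rab of export from the endoplasmic reticulum, had 3.30 and 3.37 and passed the threshold in replicate 2 alone. RAB30 (0.77 and 0.75), RAB18 (0.23 in both), RAB41 (-0.23 and -0.24) and RAB33B (-1.06 in both, the lowest pair in the tables) completed the list.

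The highest Rab of all was RAB15, which controls endosomal recycling in neurons, at 6.64 in replicate 1 and 6.42 in replicate 2 (6.53 ± 0.15). Per kb of exon it stood at 4.20, above 87.3% of protein-coding genes with a value, and was the only Rab with a linear value of at least 50 in both libraries. Among the other exocytic and surface-directed Rabs, 7 of 8 had a value (87.5%, against 42.3% of protein-coding genes). RAB15, placed in this list although it acts in endosomal recycling, alone was detected (12.5%, against 18.4%). RAB26, a Rab of exocrine secretory granules, had 3.20 and 3.22 and stayed below the threshold in both libraries. RAB37, found on mast cell granules in mouse, had 2.20 and 2.24, equal to 8 steps in replicate 2 and 0 in replicate 1. RAB44, which affects mast cell degranulation in mouse, had 1.22 and 1.24, or 4 steps in replicate 2. RAB10, which carries vesicles to the surface, had the same pair of values. RAB13 and RAB8A had 0.23 and 0.23, or 2 steps in replicate 2.

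Of 12 early and recycling endosome genes 4 had a value (33.3%, against 42.3% of protein-coding genes). RAB14, a Rab of early endosomes and the trans-Golgi, was the 1 detected (8.33%, against 18.4%), at 3.88 in both libraries (3.88 ± 0.00). Its SD lies below the 0.0407 of all genes with means from 2 to 4. Values at this level are shrunken, 4 genes hold the same pair, RAB14 included, and reads in both libraries were not shown. RAB22A had 2.77 and 2.71, RAB5B 2.01 and 2.04 and RAB5A, the defining Rab of the early endosome, 1.35 and 1.33, which is 6 steps in replicate 1 and 0 in replicate 2. Of 9 late endosome and lysosome genes 2 had a value (22.2%) and 0 were detected, and the difference of these small lists from the background was not tested. RAB7A, the defining Rab of late endosomes, had 0.23 in both libraries, or 2 steps in replicate 2. RAB24, linked to autophagy, had 1.79 and 1.82 and shares 926 exonic bases with MXD3 on its own strand, whose values were 11.42 and 11.72. Of the 8 remaining genes RAB40A, an adaptor of a ubiquitin ligase, had 2.29 in both libraries and was the 1 with a value (12.5%, against 42.3%).

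**Figure D3:**
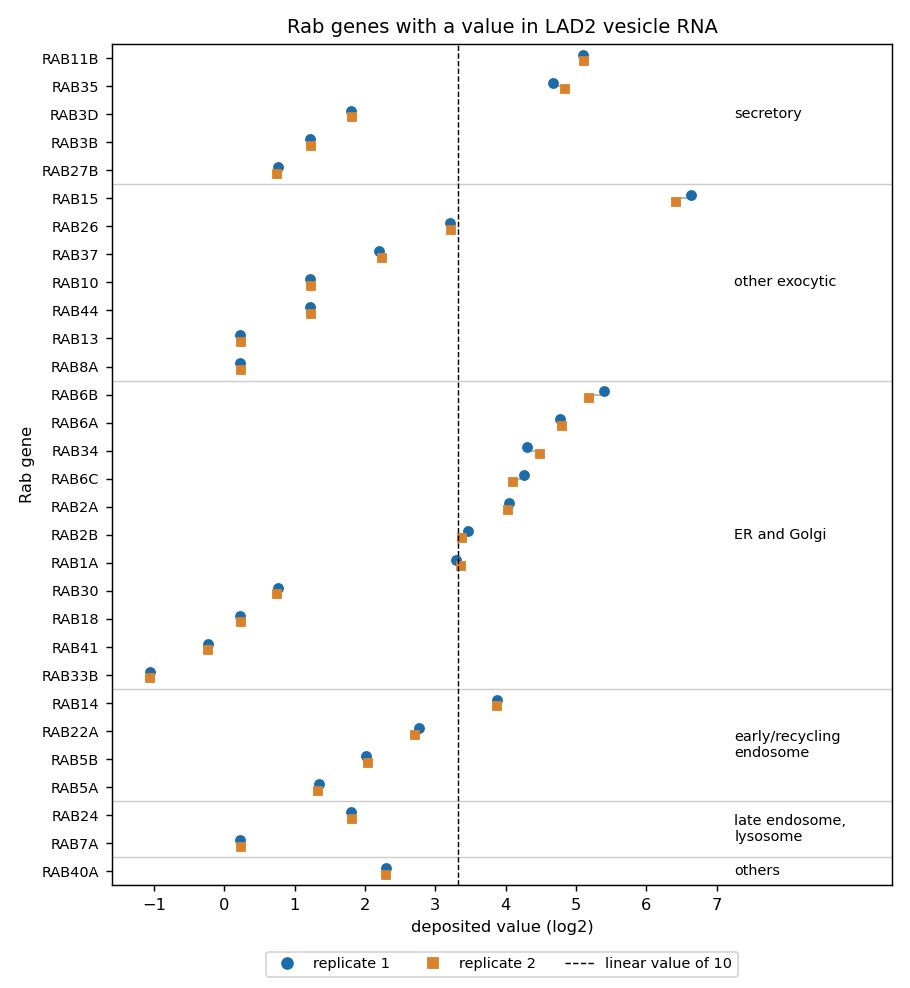
Deposited log2 values (x axis) of the 30 Rab genes with a value (y axis), by list, with circles for replicate 1 and squares for replicate 2; the dashed line is a linear value of 10. RAB15 is highest at 6.64 and 6.42, 10 genes lie right of the line in both libraries, and RAB33B is lowest at -1.06.

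In order of level per kb of exon, RAB15 (4.20) and RAB11B (3.80) led the family. RAB35 (2.75), RAB6B (2.70), RAB34 (2.66), RAB6C (2.56) and RAB6A (2.50) followed, and neighbours in this run lay within the SD of at least 1 of the 2 genes. RAB26 (1.90), RAB14 (1.77), RAB1A (1.61), RAB2B (1.57) and RAB2A (1.54) came next. RAB24 (0.76) stood next, just above the median of protein-coding genes, and the other 17 with a value were below that median.

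The 33 Rabs with no value were spread over the lists. They were RAB3A, RAB3C, RAB11A and RAB27A of the secretory list, RAB8B of the other exocytic Rabs, and RAB1B, RAB6D, RAB19, RAB33A, RAB36 and RAB43 of the endoplasmic reticulum and Golgi. Early and recycling endosome genes with none were RAB4A, RAB4B, RAB5C, RAB17, RAB20, RAB21, RAB25 and RAB31. Those of late endosomes and lysosomes were RAB7B, RAB9A, RAB9B, RAB12, RAB29, RAB32 and RAB38, and the rest were RAB23, RAB28, RAB39A, RAB39B, RAB40B, RAB40C and RAB42. Exonic bases shared with a gene on the same strand were annotated for 10 Rabs, of which 4 had a value, against 26 of the other 53. The 6 without one are RAB4A, RAB4B, RAB5C, RAB27A, RAB40C and RAB43. RAB27A shares 183 such bases with PIGBOS1, and RAB3D, which had a value, shares 144 with TMEM205. Whether this overlap affected the values was not tested.

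Step numbers were small for the low Rabs. Of the 14 Rab genes with a mean below 2 on the log2 scale, 13 were placed on the steps. All 13 were placed with steps in 1 library and none in the other, 4 in replicate 1 and 9 in replicate 2. RAB33B, at the lowest pair, was the one not placed. Presence of the 13 genes in the tables therefore rests on 2 to 6 steps each. Most low genes were alike in this. Of the 4041 placed, 2688 had steps in replicate 1 alone and 1068 in replicate 2 alone. The different split of the Rabs was not tested.

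Between the libraries the deposited values of the detected Rabs differed little, though values at low levels were pulled together. Of the 10, 6 were higher in replicate 1 and 4 in replicate 2. RAB6B had the largest difference, 0.21 log2 units, and its SD of 0.15 exceeded the 0.0892 of all genes with means from 4 to 6. RAB15, also 0.21 apart, had the same SD as all genes from 6 to 8, which was 0.15. No Rab gene reached a 2-fold difference, against 0.198% of the 6576 genes detected in both libraries, and none reached 1.5-fold. These counts do not measure agreement of the reads, since shrunken values stay close. RAB37, at 0 steps in replicate 1 and 8 in replicate 2, had values 0.037 log2 units apart. With 1 group there was no condition to test, and no p-value is given.

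Of the 63 Rabs, 26 share at least 1 exonic base with a gene on the other strand, and 12 of these pairs had both values. In 11 of the 12 pairs the partner was higher in both libraries (91.7%), against 62.6% of 3211 such pairs over all protein-coding genes. The median gap was 5.30 log2 units for Rabs and 1.46 for all pairs, or 5.66 and 2.30 per kb of exon. In 8 further cases the partner alone had a value, in 3 the Rab alone, and in 3 neither. The background holds pairs of protein-coding genes counted from both sides, which pulls its share toward an even split. With a partner that is not protein-coding, the partner was higher for 8 of 9 Rabs (88.9%) and for 78.7% of 1343 protein-coding genes. Per kb of exon these shares were 88.9% and 89.2%, so the share of the Rabs lay at the background. The median gap of these pairs was 5.39 log2 units for Rabs and 3.22 for all protein-coding genes, or 8.51 and 5.42 per kb. The wider gap of the Rabs was not tested. Without RAB27B, whose partner was known to be high, and RAB40A, whose gap was small, 9 of 10 Rabs were below their partner. These shares describe genes of 2 libraries and no test was made.

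The widest gaps in log2 units were those of RAB8A, RAB27B, RAB3D and RAB37. The gap is partner minus Rab, so a low Rab value widens it by construction. RAB8A, which sends vesicles to the surface and the cilium, had 0.23 in both libraries against 11.85 and 12.13 for ENSG00000269243, a gap of 12.16 per kb. RAB3D stood 9.63 log2 units below ENSG00000267576 (11.26 and 11.61), or 11.91 per kb. RAB37 stood 8.57 units below SLC9A3R1-AS1 (10.50 and 11.06), with which it shares only 17 exonic bases.

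Detected Rabs were also below their partners in most pairs. RAB6A had 4.78 and 4.80 against 9.60 and 9.97 for ENSG00000256034, a gap of 8.51 per kb. RAB11B stood 3.16 log2 units below RAB11B-AS1 (8.35 and 8.17), or 4.26 per kb. RAB2B had 3.47 and 3.38 against 8.60 and 8.68 for TOX4, a protein-coding chromatin factor gene, or 4.24 per kb below it.

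RAB35 was the exception. It had 4.67 and 4.85, and RAB35-AS1, which shares 596 exonic bases with it, had 2.57 and 2.53. RAB35 was thus 2.10 and 2.32 log2 units higher in replicates 1 and 2. Per kb of exon the gap between RAB35 and its partner narrowed to -1.27 (partner minus RAB35). RAB40A and its partner ENSG00000234405 were 0.26 log2 units apart, or 2.92 per kb of exon, the partner being higher, at a level where values are shrunken.

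Further pairs went with low Rabs. RAB5A stood 6.58 log2 units per kb of exon below PP2D1 (7.30 and 7.38). RAB33B stood 5.39 below RAB33B-AS1 (4.34 and 4.32), or 4.73 per kb. RAB1A stood 2.85 below CEP68, a centrosome gene, at 6.38 and 5.99, or 1.47 per kb. For RAB5A and RAB33B the SD is too small to judge the gap by, since their values are shrunken.

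Partners also had values where the Rab had none. RAB1B, the close relative of RAB1A, had no row, while both genes on its other strand stood high, ENSG00000254452 at 11.53 and 11.83 and ENSG00000245156 at 11.68 and 11.81. RAB4B lies opposite ENSG00000282951 at 8.46 and 8.29, and RAB12 opposite ENSG00000266708 at 7.65 and 7.70. RAB27A lies opposite PIGB, an enzyme gene of lipid anchor synthesis, at 5.89 and 5.95. The partners of longest overlap of these 8 Rabs had means from 2.33 to 11.68.

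Not every detected Rab had such a neighbour. RAB15, RAB34, RAB2A and RAB14 share no exonic base with an opposite-strand gene, and RAB6B and RAB6C lie opposite SRPRB and RAB6C-AS1, which had no value. Of the 37 Rabs without an opposite-strand partner 15 had a value (40.5%) and 4 were detected (10.8%), against 32.5% and 9.33% of protein-coding genes without one. Of the 26 with one 15 had a value (57.7%) and 6 were detected (23.1%), against 61.5% and 36.2% of protein-coding genes with one. No difference between these shares was tested.

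Coding stretches that RAB8A, RAB6A and RAB1B share with a non-coding opposite-strand gene are shown on the coding strand, 5′ to 3′, as the letters at which a read belongs to the Rab or to its partner by strand alone. Capitals mark the start codon of RAB6A, and all positions are on GRCh38 from GENCODE 29 transcripts.
RAB8A, chr19:16125470-16125547, plus strand: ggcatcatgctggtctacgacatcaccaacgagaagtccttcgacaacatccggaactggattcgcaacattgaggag
RAB6A, chr11:73760566-73760635, minus strand: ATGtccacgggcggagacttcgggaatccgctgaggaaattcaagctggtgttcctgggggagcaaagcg
RAB1B, chr11:66272365-66272460, plus strand: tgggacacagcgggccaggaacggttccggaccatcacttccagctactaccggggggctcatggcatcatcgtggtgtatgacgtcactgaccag
The strand setting was not tested on reads, which are not used here.

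**Figure D4:**
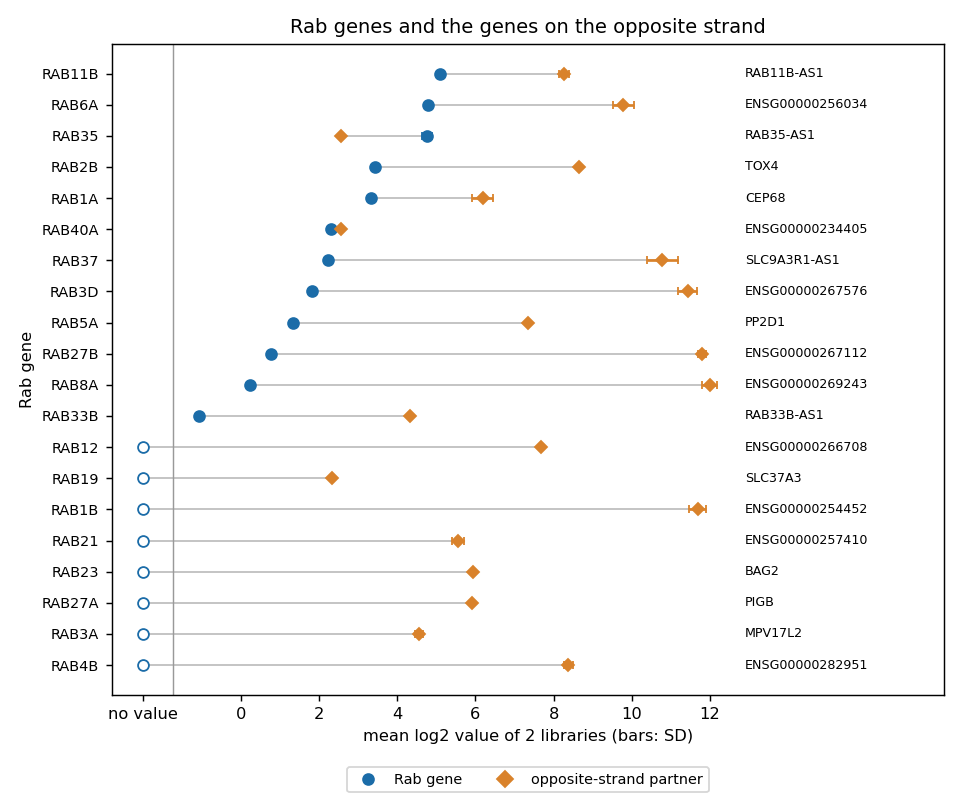
Mean log2 values with SD (x axis, n = 2) of 20 Rab genes (circles, y axis) and their opposite-strand partners (diamonds, named at right); open circles are Rabs with no value. The partner lies to the right in 11 of the 12 pairs with both values, and RAB35 is the exception.

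The proteins that load, anchor and extract Rabs formed a list of 7, of which 5 had a value (71.4%) and 2 were detected (28.6%), against the same 42.3% and 18.4%. GDI2, which extracts Rabs from membranes, had 4.30 and 4.24 (4.27 ± 0.04), and RABGGTA, a subunit of the geranylgeranyl transferase, 4.03 and 3.98 (4.01 ± 0.04). The other subunit, RABGGTB, had 1.35 and 1.33. The Rab escort protein genes CHM and CHML had no value.

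Of 32 GEF genes 23 had a value (71.9%, against 42.3% of protein-coding genes). Detected were 12 (37.5%), against 15.9% of Rabs and 18.4% of all protein-coding genes. DENND2D and DENND2A, which encode DENN-domain exchange factors, had 7.74 and 7.54 (7.64 ± 0.13) and 7.62 and 7.54 (7.58 ± 0.06). RABGEF1, the exchange factor of RAB5, had 7.23 and 7.71 (7.47 ± 0.34), and DENND3 6.44 and 6.36 (6.40 ± 0.06). MADD, the exchange factor of RAB3 and RAB27, had no value. The difference between these lists was not tested.

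Among 35 GAP genes 17 had a value (48.6%, against 42.3% of protein-coding genes) and 6 were detected (17.1%, against 18.4%), close to the background. TBC1D10B, of a family of GAPs that act on RAB27A and RAB35, had 7.79 and 7.84 (7.81 ± 0.04). SGSM3 had 5.86 and 5.75 (5.81 ± 0.08), TBC1D8 5.16 and 5.14 (5.15 ± 0.01) and SGSM2 4.07 and 4.04 (4.06 ± 0.02).

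RAB27 and RAB3 effectors had a value in 10 of 15 cases (66.7%) and were detected in 4 (26.7%), against 42.3% and 18.4% of protein-coding genes, with no test of the difference. MLPH, which links RAB27A to a myosin motor in melanocytes, had 6.06 and 6.17 (6.11 ± 0.08). UNC13D, the RAB27 effector that primes granules for release, had 4.92 and 5.06 (4.99 ± 0.10). RPH3AL had 4.16 and 4.02 (4.09 ± 0.10) and RIMS2, a scaffold that binds RAB3, 3.85 and 3.75 (3.80 ± 0.08). RPH3AL and RIMS2 share their pairs of values with 21 and 48 genes, themselves included. Values there are shrunken, so reads in both libraries were not shown. MLPH, UNC13D and RIMS2 have no opposite-strand partner. SYTL1, SYTL3, SYTL5, EXPH5 and MYO5B had no value.

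Effectors of RAB11 and RAB35 had a value in 6 of 11 cases (54.5%) and were detected in 3 (27.3%). Over all protein-coding genes these shares were 42.3% and 18.4%, and the difference was not tested. SH3TC2, a RAB11 effector of Schwann cells, had 5.07 and 5.00 (5.04 ± 0.05), FSCN1, an actin-bundling protein, 4.49 and 4.40 (4.44 ± 0.07), and RAB11FIP3 3.93 and 3.85 (3.89 ± 0.06). RAB11FIP2 stood at 0.35 and 0.34. Endosomal effectors had a value in 9 of 14 cases (64.3%) and were detected in 3 (21.4%), against the same 42.3% and 18.4%. RABEP1, which binds active RAB5, had 7.32 and 7.10 (7.21 ± 0.16), RILPL1 6.45 and 6.72 (6.59 ± 0.19), and OSBPL1A, which binds RAB7, 6.13 and 5.99 (6.06 ± 0.10). APPL2, which binds RAB5, had 3.35 and 3.27 (3.31 ± 0.06) and was not detected, with a linear value of 9.67 in replicate 2. It shares its pair of values with 131 genes, itself included, and values there are shrunken. RABEP1 lies opposite NUP88, a nuclear pore gene with a mean of 11.35.

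Over all 114 regulators and effectors 70 had a value (61.4%, against 42.3% of protein-coding genes) and 30 were detected (26.3%, against 18.4%). Their median per kb of exon was -0.22 on the log2 scale, against -0.23 for the Rabs and 0.68 for all protein-coding genes with a value.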

How the data were processed

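The authors deposited 1 log2 value per gene and library in tables named as counts. The tools FastQC 0.11.5 and STAR 2.6.1a and the build hg38 stand in the submitters' processing notes, and per the labels' protocols total RNA was taken with a Qiagen kit and made into libraries with an NEB kit. The sources used here do not give the counter, strand setting, annotation or transform. No count model was used, and no differences were tested, since the 2 libraries form 1 group.

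Symbols and gene models came from a table of gene names (11066 of 14467 identifiers matched) and GENCODE 29 on GRCh38 (13733 matched). Exonic length is the union of a gene's exons. A partner shares at least 1 exonic base on the other strand, and the longest overlap among partners with a value was taken. Read steps were derived as described in the report. On the scale of high values, at 2 steps per read, the detection threshold corresponds to about 11.8 reads in replicate 1 and 8.50 in replicate 2. Values near the threshold are still shrunken, so a gene that passes may have fewer reads in 1 of the libraries. No gene had identical values in both libraries. Interval and step functions were run on made-up data with known answers. The made-up values followed the step formula itself with the step sizes given, so that run cannot show whether a step is a read.

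Members and lists were chosen with earlier results of these data known. Named genes were all secretory Rabs, the 10 other Rabs of highest mean, their partners and up to 4 genes of highest mean per list. Other Rabs, their partners, and list members without a value were named after their values were seen. Protein sequences were not used here, and 1 exon sequence is not reported here. Scripts ran under pandas 2.3.3, numpy 2.4.6, matplotlib 3.10.9 and Python 3.11.15.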

Additional observations from a re-analysis of the deposited data

How the results depend on the processing

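The count of Rabs with a value (30) and the count of Rabs 2-fold apart (0) held under every alternative tried for them. The latter does not measure agreement of the libraries, since low values are shrunken. Rabs detected numbered 10 as reported, 13 at a linear value of at least 5, 1 at 50, 4 without Rabs that have an opposite-strand partner, and 10 to 11 in 1 library alone. Regulators and effectors numbered 30, 43 at 5, 10 at 50 and 30 to 31 in 1 library alone. Rabs below their partner numbered 8 (of 9 pairs) to 12 (of 15) under the alternatives tried. Those with the partner of highest value, with partners that are not protein-coding, and without RAB27B and RAB40A were chosen after seeing the data.

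The secretory median stood at -0.21 relative to the other Rabs per kb and at -0.41 without division by length, -0.58 per kb of the longest transcript, -0.43 with a pseudocount of 1, -1.90 without Rabs that have an opposite-strand partner (1 secretory gene left), -1.11 without the RAB11 genes and -1.01 with the wider list. It reversed to 0.75 among detected genes, where 2 and 8 genes remained. In 1 library alone it was -0.215 to -0.206. The cause was not tested. ENSG00000267112 stood 11.04 above RAB27B, 14.75 per kb, 10.37 with a pseudocount of 1 and 10.98 to 11.10 in 1 library alone. No paired analysis was possible because replicates 1 and 2 form a single group. Of the 14 Rabs with means below 2, 13 rest on a few steps in 1 library, and whether depth lies behind this was not tested. RAB5B (7 steps) and RAB37 (8 steps), with means just above 2, also rest on replicate 2 alone. Steps were not worked out for the higher Rabs, so more of them may rest on 1 library.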
